A study of Arabidopsis thaliana with 69 samples.

Results

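TBL34 (TRICHOME BIREFRINGENCE-LIKE 34, AT2G38320, chromosome 2, probe set 267037_at) is 1 of 13350 genes measured under a gene name on these arrays. It is 1 of 22 measured genes with TBL and a number as symbol, of 45 such genes in the reference gene table. It was chosen by its DEX minus DMSO values in the VND7 line, which were high while those of most relatives were near 0 or negative. For TBL34 that contrast is therefore described below without a test, and for its relatives the calls of the fit are given as counts that describe them and support nothing. The 21 other measured TBL genes, each with 1 probe set, are its comparison set.

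TBL proteins are plant-specific enzymes of the Golgi, and several of them add acetyl groups to wall polysaccharides. TBL34 and its close relative TBL35 acetylate xylan, the main hemicellulose of secondary walls in xylem, and other members act on xyloglucan, mannan or pectin. VND7 is a NAC transcription factor that directs cells to become xylem vessels, whose thick walls are rich in cellulose, acetylated xylan and lignin.

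The series measured RNA of Arabidopsis thaliana Col-0 cultures on Affymetrix ATH1 arrays, 69 in all, in 23 groups of 3. Seedlings grew in shaken liquid medium without light for 6 days, after which flasks received dexamethasone (DEX) at 10 µM or DMSO, its solvent. The VND7 line carried VND7-VP16-GR, a fusion of VND7 with the VP16 activation domain and the glucocorticoid receptor, under the 35S promoter, which is active in most cell types. Its DEX groups were harvested at 1, 3, 6, 9, 12, 24, 30 and 48 h, and its DMSO groups at those times and at 0 h. The construct of the empty-vector line had VP16-GR alone, and this line has DEX and DMSO groups at 9, 12 and 24 h. The labels name hypocotyl as the tissue, whereas the protocol describes whole flasks of seedlings. They call the replicates biological and do not say how many independent transformants a line holds, so p-values measure only the spread between these samples. Values are log2 signals per probe set, and the lowest, 2.14, is called the floor. Some probe sets repeated a low value of their own above it, such as 4.32 for TBL30. In RNA from whole cultures, fewer cells that make a transcript and less transcript per cell cannot be told apart.

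By correlation over all probe sets, 11 arrays of the VND7 line resembled arrays of the opposite treatment label more than their own or had their nearest array there. Of these, 6 were labelled DEX: replicates 2 and 3 of 1 h, replicate 2 of 24 h, and replicates 1 to 3 of 48 h. The other 5, labelled DMSO, were replicate 3 of 0 h, replicate 2 of both 1 h and 6 h, and replicate 1 of both 24 h and 30 h. By mean correlation 9 of the 11 were closer to the other label. The other 2, DMSO replicate 3 of 0 h and replicate 1 of 30 h, were flagged by their nearest array alone. Their mean correlations with their own and the other label were 0.951 and 0.931 at 0 h, and 0.973 and 0.901 at 30 h. Those nearest arrays, DEX 24 h replicate 2 and DEX 48 h replicate 1, are among the 11 themselves. Below, all 11 are called arrays that sit with the other label. The labels were kept. The TBL34 differences, the calls and the correlations below use all arrays, and values without these 11 are given beside the main differences and counts that they moved.

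Across the 69 arrays TBL34 had 3 kinds of level. It stood at 11.81 to 13.29, with a median of 13.06, in all 18 DEX arrays of the VND7 line from 3 to 30 h. It stood at 6.27 to 7.07 in 23 of the 27 DMSO arrays of that line. It stood at 5.03 to 5.99 in all 18 arrays of the empty-vector line, whichever the treatment.

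At 1 h the DEX arrays of the VND7 line read 12.55, 11.83 and 5.91, against 6.68, 12.15 and 6.75 in the DMSO arrays. The groups overlapped: replicates 1 and 2 with DEX were high, replicate 3 with DEX was low, and replicate 2 with DMSO was high. The difference of means was 1.57 with all arrays and 5.84 without the arrays that sit with the other label, which leaves replicate 1 alone in the DEX group. Over all probe sets the nearest VND7-line array to that replicate was DEX 30 h replicate 2. Its harvest time was not checked against any other record, so 5.84 may not describe a 1 h response. The low DEX array is the only one of the VND7 line whose TBL34 level lies within the range of the empty-vector line.

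At 3 h TBL34 read 13.26, 13.11 and 13.01 with DEX, against 6.66, 6.58 and 6.69 with DMSO. At 6 h it read 13.16, 13.23 and 13.15 with DEX, against 6.80, 12.00 and 6.59 with DMSO. At 9 h it read 13.29, 13.24 and 13.25 with DEX, against 6.77, 6.87 and 6.62 with DMSO. Every DEX array was above every DMSO array at these times, and the 1 high DMSO array at 6 h is among those that sit with the other label. The 3 h means were 13.13 ± 0.12 with DEX and 6.64 ± 0.05 with DMSO (SD, n = 3 each), a difference of 6.48 or 89.3-fold. The 9 h means were 13.26 ± 0.03 with DEX and 6.75 ± 0.13 with DMSO (SD, n = 3 each), a difference of 6.50 or 90.8-fold. The 6 h difference was 4.72, and 6.48 without the arrays that sit with the other label.

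At 12 h TBL34 read 12.97, 13.19 and 13.00 with DEX, against 6.53, 6.93 and 6.33 with DMSO, a difference of 6.45. At 24 h it read 12.97, 11.81 and 12.90 with DEX, against 11.54, 6.47 and 7.07 with DMSO. At 30 h it read 12.86, 12.57 and 12.42 with DEX, against 6.82, 6.69 and 6.45 with DMSO, a difference of 5.96 or 62.4-fold. No groups overlapped at these times, although the high DMSO array and the lowest DEX array at 24 h came within 0.3 of each other. The 24 h difference was 4.20, and 6.17 without those 2 arrays.

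At 48 h the high level was gone. TBL34 read 7.04, 6.94 and 7.11 with DEX, against 6.93, 6.54 and 6.31 with DMSO. The means were 7.03 ± 0.08 with DEX and 6.59 ± 0.31 with DMSO (SD, n = 3 each), a difference of 0.44 with arrays that did not overlap. All 3 DEX arrays at 48 h sit with DMSO arrays over all probe sets, so a later decline of TBL34 and a mislabelling cannot be told apart here.

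Among all 22746 probe sets the DEX minus DMSO difference of TBL34 ranked 58th from the top at 3 h, 127th at 6 h, 102nd at 9 h, 43rd at 12 h, 51st at 24 h and 129th at 30 h. Its highest value, 13.29, was below the brightest probe set of an array, which read 14.65 to 15.31. Of all probe sets, 0.295% to 0.462% in an array lay above 13.29. Whether the TBL34 probe set was near an upper limit of its own was not tested. In the order of the 23 group means, DEX at 9, 6, 3, 12, 30, 24 and 1 h came first and the 6 groups of the empty-vector line last. Only 4 pairs of neighbours in that order had arrays that did not overlap. These were DEX 9 h above DEX 6 h, DEX 12 h above DEX 30 h, DEX 48 h above DMSO 9 h, and DMSO 48 h of the VND7 line above DMSO 9 h of the empty-vector line.

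**Figure D1:**
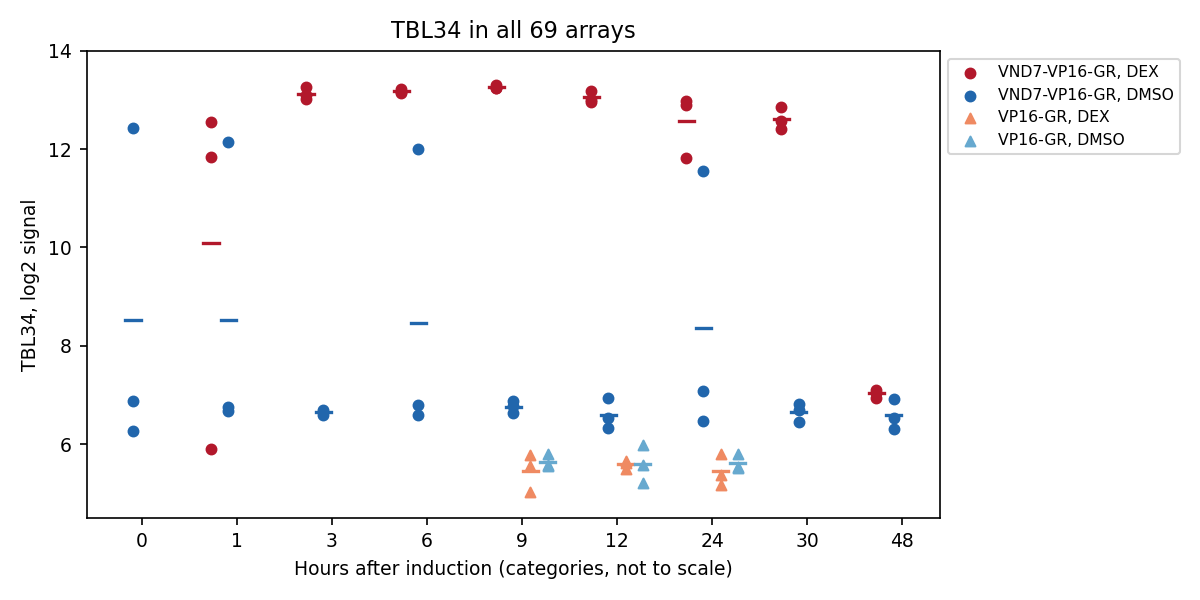
TBL34 log2 signal in each of the 69 arrays (points) against hours after induction, by line and treatment; short bars are means of 3 arrays. DEX arrays of the VND7-VP16-GR line sit at 11.81 to 13.29 from 3 to 30 h, 4 DMSO arrays of that line sit at 11.54 to 12.43, and the VP16-GR arrays lie below 6.

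Without VND7, DEX left no detectable mark on TBL34. This comparison shares no array with the one that chose the gene. In the empty-vector line at 9 h TBL34 read 5.03, 5.78 and 5.55 with DEX, against 5.55, 5.80 and 5.58 with DMSO. At 12 h it read 5.62, 5.65 and 5.49 with DEX, against 5.99, 5.58 and 5.22 with DMSO. At 24 h it read 5.36, 5.17 and 5.80 with DEX, against 5.51, 5.80 and 5.53 with DMSO. DEX and DMSO arrays overlapped at each time. The differences were -0.19, -0.01 and -0.17, each with a standard error of 1.23 and an adjusted p of 1 (limma, Benjamini-Hochberg over all probe sets). Averaged over the 3 times the difference was -0.12 with a 95% interval of -1.55 to 1.30. That interval is wide because the fit takes 1 spread per probe set over all 69 arrays, including those that sit with the other label. A fit of the empty-vector arrays alone gave -0.40 to 0.15 (adjusted p = 0.853). The share of probe sets called in this line, at an adjusted p under 0.05 and a difference of at least 1, was 0.0835% at 9 h, 0.0879% at 12 h, 0.123% at 24 h and 0.22% for the mean of the 3 times.

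TBL34 was also higher in the VND7 line than in the empty-vector line when neither had DEX. All 27 DMSO arrays of the VND7 line lay above all 18 arrays of the empty-vector line, and the nearest were 0.286 apart. At 9 h the difference between the lines was 1.11, from means of 6.75 ± 0.13 in the VND7 line and 5.64 ± 0.14 in the empty-vector line (SD, n = 3 each). It was 1.00 at 12 h and 2.75 at 24 h, and the arrays did not overlap at any of the 3 times. With the spread of all 69 arrays none of these passed: the adjusted p was 1 at 9 and 12 h and 0.235 at 24 h, where 1.48%, 2.24% and 2.26% of all probe sets were called. The mean over the 3 times was 1.62 ± 0.71 (SE), adjusted p = 0.132, where 3.99% of probe sets were called.

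These p-values turned on the arrays that sit with the other label, which widen the spread of TBL34. Without those arrays the differences were 1.11 at 9 h, 1.00 at 12 h and 1.15 at 24 h, with adjusted p-values of 5.5e-05, 0.00023 and 0.00022. The mean over the 3 times was then 1.09 ± 0.11 (SE), adjusted p = 8.4e-10 (limma). In fits of the compared groups only, the difference passed at 9 h (adjusted p = 0.016) and not at 12 h (0.127), at 24 h (0.713) or for the mean (0.052). Leaving out DMSO 24 h replicate 1, at 11.54, brings the 24 h difference to 1.15. Each line is its own seed stock and set of cultures, so the construct, the seed stock and the culture cannot be told apart.

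**Figure D2:**
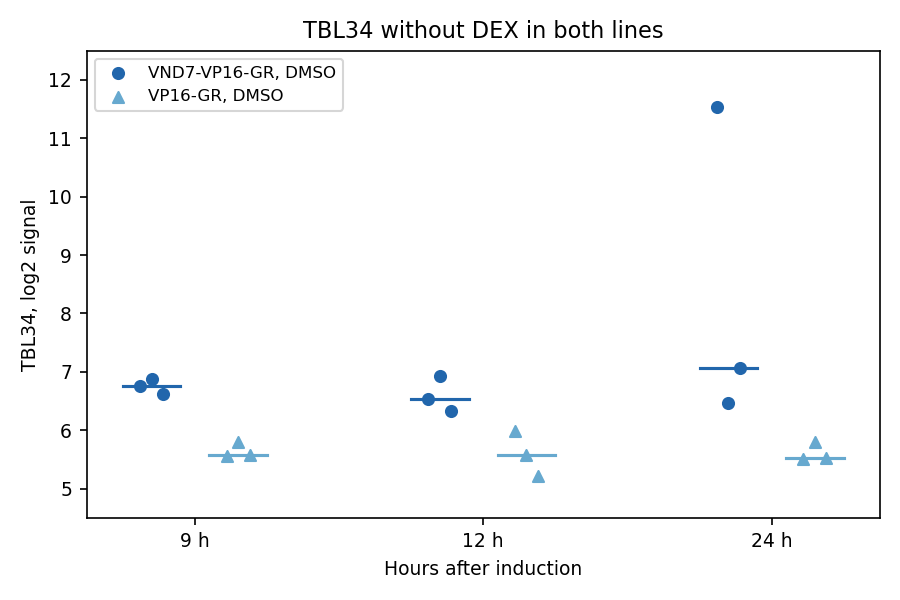
TBL34 log2 signal in DMSO arrays of the VND7-VP16-GR line (left in each pair) and of the VP16-GR line (right) at 9, 12 and 24 h; each point is 1 array and each bar the median of 3. Every VND7-VP16-GR array lies above every VP16-GR array of its time, and 1 array at 24 h stands at 11.54.

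Over time without DEX no trend was detectable. The mean of the 8 DMSO groups from 1 to 48 h minus the 0 h group was -1.20 ± 0.92 (SE), adjusted p = 1 (limma). The 0 h arrays read 6.27, 6.87 and 12.43, and the sign turned with 1 of them. Without replicate 3 the difference was 0.75, and without all the arrays that sit with the other label it was 0.10 ± 0.17 (SE). No probe set was called in this comparison, and 1533 had an unadjusted p under 0.05.

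None of the 4 other xylan acetyltransferases measured here, TBL28, TBL30, TBL32 and TBL35, was called higher with DEX at any time. TBL35 was lower with DEX. It read 5.28, 4.65 and 5.23 with DEX at 3 h, against 6.74, 7.11 and 6.47 with DMSO. At 9 h its means were 5.25 ± 0.08 with DEX and 6.84 ± 0.20 with DMSO (SD, n = 3 each). The arrays did not overlap at either time, and the differences were -1.72 at 3 h and -1.59 at 9 h. The same value, 5.23, recurred in DEX arrays at 3, 6 and 9 h as a repeated low value of this probe set, so these differences may be understated. By 48 h TBL35 read 6.93, 6.78 and 6.78 with DEX, and its difference from DMSO was 0.00. So in the DEX groups where TBL34 was highest TBL35 was low. This did not hold in every array with high TBL34. DMSO replicate 2 of 1 h and of 6 h and replicate 1 of 24 h, with TBL34 at 12.15, 12.00 and 11.54, had TBL35 at 6.95, 6.47 and 7.11. DMSO replicate 3 of 0 h had TBL35 at 5.23. Over the 69 arrays the Pearson correlation of these 2 genes was -0.83, a value that the arrays' shared treatments shape. It was -0.90 over the 58 arrays without those that sit with the other label, which leaves these DMSO arrays out.

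TBL28, TBL30 and TBL32 were called in neither direction. TBL32 ranged from 4.37 to 6.62 over all arrays, on a probe set that may also match a near-identical transcript, and differed by -0.09 at 3 h, -0.51 at 9 h and 0.40 at 12 h. At 12 h it read 6.36, 4.53 and 6.33 with DEX, against 5.49, 5.31 and 5.22 with DMSO, so DEX replicates 1 and 3 lay above the DMSO arrays and replicate 2 below them. TBL28 ranged from 2.65 to 4.34 and TBL30 from 4.04 to 5.19, both low on the scale, and at 9 h they differed by -0.06 and -0.13. In many arrays of the VND7 line they repeated the same low values, 2.99 for TBL28 and 4.32 for TBL30. A fall of either could hardly be seen there. TBL29, TBL3, TBL31 and TBL33, other xylan acetyltransferases, were not analysed here.

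TBL25, a mannan acetyltransferase, mirrored TBL34 most closely within the family. It read 6.06, 6.45 and 6.33 with DEX at 9 h, against 9.56, 9.15 and 9.59 with DMSO, a difference of -3.15. The arrays did not overlap, and the differences at 3, 6 and 12 h were -3.18, -3.28 and -3.16. Its correlation with TBL34 over the 69 arrays was -0.96, the most negative in the family. In the 18 empty-vector arrays alone, where TBL34 hardly varied, it was 0.56. TBL23, another mannan acetyltransferase, differed by 0.72 at 3 h, 0.95 at 6 h, 0.36 at 9 h, 0.75 at 12 h and -0.55 at 30 h, and was not called at any time. TBL26, of the same kind, stayed within 0.3 of the floor in all 69 arrays.

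Of the members with no substrate named here, TBL36, TBL37, TBL39 and TBL41 were lower with DEX and TBL16 and TBL18 higher, each called at 2 or more of the 8 times. TBL36 read 4.29, 4.29 and 4.80 with DEX at 9 h, against 7.78, 8.23 and 7.78 with DMSO, a difference of -3.47. The value of 4.29 was the same in both arrays, so that difference may be understated too. The 9 h differences of TBL37, TBL39 and TBL41 were -2.42, -1.54 and -2.17. TBL16, the member most like TBL34 with a correlation of 0.91 over the 69 arrays, read 7.90, 7.86 and 7.85 with DEX at 3 h, against 6.66, 6.78 and 6.70 with DMSO. Its difference of 1.16 is far under the 6.48 of TBL34 at the same time. TBL18, with a correlation of 0.87, differed by 1.29 at 12 h and by 0.79 at 9 h.

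As counts, 6 of the 21 other TBL genes were called lower and 0 higher at 9 h in the VND7 line, where 17.7% of all probe sets were called lower and 11.8% higher. At 3 h it was 6 lower and 1 higher (17.4% and 10.4% of all probe sets), at 6 h 4 lower and 2 higher (12.7% and 9.85%), and at 12 h 4 lower and 2 higher (13.2% and 8.94%). At 24 h it was 1 lower and 0 higher (1.46% and 2.89%), and at 30 h 4 lower and 0 higher (15.2% and 12.7%). At 1 h, where 0.0132% of all probe sets were called, and at 48 h, where 0.0044% were, none of the 21 was called, with 2 and 0 members at an unadjusted p under 0.05 (limma). Of these 30 calls, 5 were lost when arrays were centred on their medians: TBL37 at 3 h, TBL35 at 6 and 24 h, TBL39 at 9 h and TBL41 at 12 h. Without the arrays that sit with the other label the counts were 6 lower and 2 higher at 6 h, 5 lower and 3 higher at 12 h, and 5 lower and 1 higher at 24 h, where 30.7%, 26.2% and 30.4% of all probe sets were called. The median difference of the 21 genes at 9 h was 0.00, as was that of all probe sets. The genes were chosen with these values known, so the counts are given as a description. TBL15, TBL19, TBL20 and TBL26 were within 0.3 of the floor in all 69 arrays and TBL21, TBL42 and TBL43 in 67 or 68. At least these 7 of the 21 could hardly be seen to fall.

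**Figure D3:**
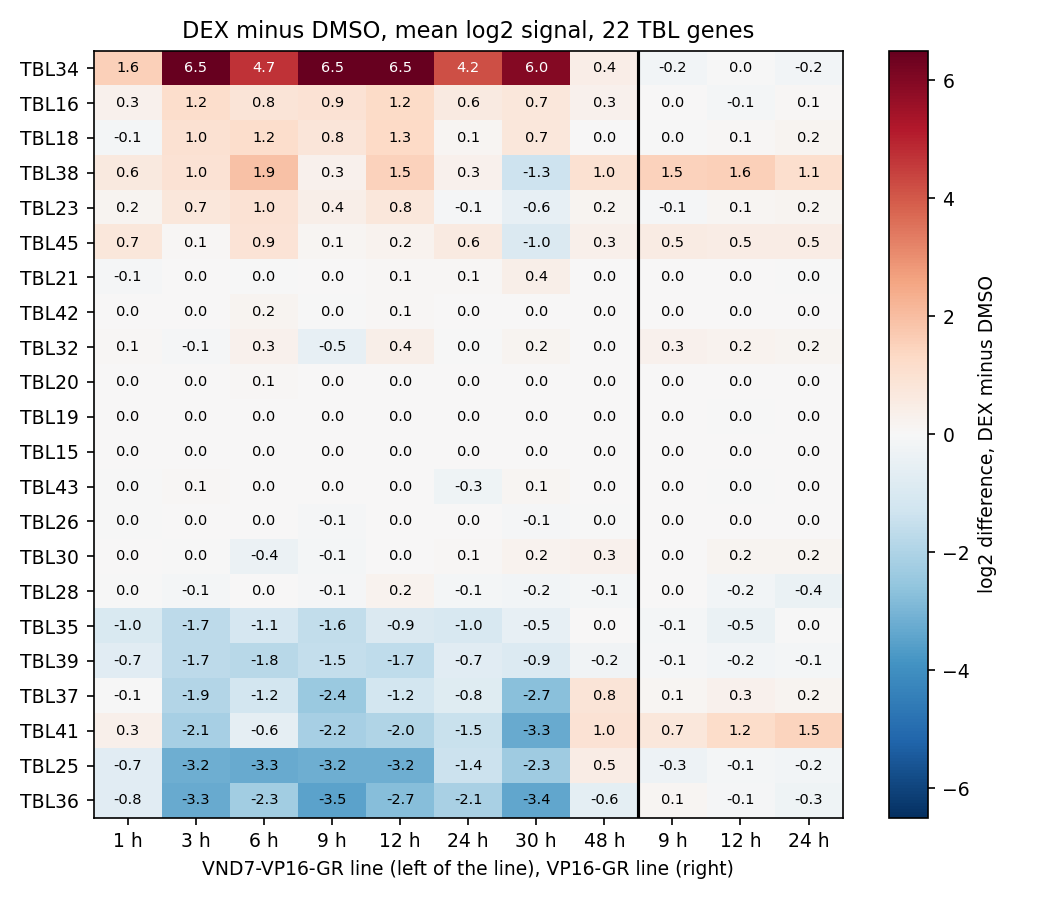
Mean log2 DEX minus DMSO difference (colour and number) of the 22 TBL genes (rows) in the VND7-VP16-GR line from 1 to 48 h and in the VP16-GR line at 9, 12 and 24 h. TBL34 at the top reaches 6.50 at 9 h, while TBL25 and TBL36 at the bottom reach -3.15 and -3.47 and no VP16-GR value is below -0.5.

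In the empty-vector line none of the 21 other TBL genes was called at 9, 12 or 24 h by limma, and 1, 2 and 1 of them had an unadjusted p under 0.05. The members with the largest values there were not TBL34. TBL38 read 10.67, 11.46 and 10.69 with DEX at 9 h, against 9.39, 9.53 and 9.45 with DMSO. TBL41 read 7.03, 7.36 and 7.43 with DEX at 24 h, against 5.65, 5.90 and 5.89 with DMSO. The DEX arrays of both genes lay above the DMSO arrays at each of the 3 times.

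Averaged over those times TBL38 differed by 1.38 ± 0.38 (SE), adjusted p = 0.105, and TBL41 by 1.14 ± 0.44 (SE), adjusted p = 0.867 (limma, all 69 arrays). In a fit of the empty-vector arrays alone both passed, with adjusted p-values of 0.000275 and 0.000389, where 0.347% of all probe sets were called. Without the arrays that sit with the other label both passed as well, with adjusted p-values of 0.000149 and 2.65e-05. In the VND7 line the DEX difference of TBL41 was negative, at -2.17 at 9 h and -3.27 at 30 h. That of TBL38 there was 1.90 at 6 h, its 1 call in that line, 1.48 at 12 h and -1.34 at 30 h. TBL34 was not called in the empty-vector line in any of these fits.

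**Figure D4:**
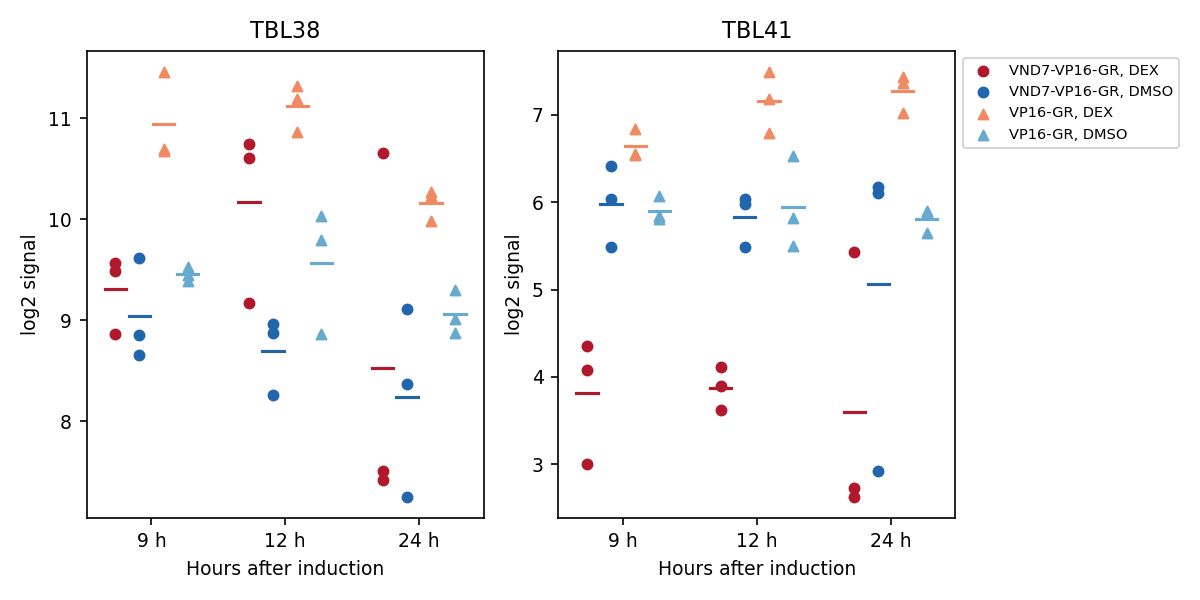
Log2 signals of TBL38 and TBL41 in each array at 9, 12 and 24 h, by line and treatment; bars are means of 3 arrays. In the VP16-GR line every DEX array of both genes lies above every DMSO array of the same time.

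Between the lines without DEX, TBL36 was the 1 other member of the 21 called for the mean of the 3 times, where 3.99% of all probe sets were called. It was lower in the VND7 line, with a difference of -1.43 ± 0.47 (SE), adjusted p = 0.030 (limma), and of -1.10 without the arrays that sit with the other label (adjusted p = 8.7e-05). At the single times 0 of the 21 were called in the fit of all arrays, where 1.48%, 2.24% and 2.26% of all probe sets were. At an unadjusted p under 0.05 (limma) stood 3, 3 and 6 of them, against 2552, 3346 and 3760 of all 22746 probe sets.

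The listed xylan synthesis genes measured under a gene name moved in the same direction as TBL34 at 9 h. Of 18 listed xylan synthesis genes 4 were measured, and all 4 were called higher with DEX at 9 h, against 11.8% of all probe sets. This list and that for acetyl supply were chosen with earlier results of these data known. Their calls and p-values in the VND7 line are therefore a description and support nothing. GUT2, a xylosyltransferase that extends the xylan backbone and is also known as IRX10, read 13.24, 13.21 and 13.37 with DEX at 9 h, against 6.87, 6.73 and 6.99 with DMSO. Its difference was 6.41 ± 1.13 (SE), adjusted p = 9.1e-06. IRX15 and IRX15-L, both needed for xylan of normal length, differed by 8.89 ± 1.96 and 6.99 ± 1.40 (SE), adjusted p = 0.000215 and 6.2e-05. GUT1, a close relative of GUT2, differed by 1.19 ± 0.19 (SE), adjusted p = 2.2e-06 (limma).

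At the other times fewer of them passed. At 3 h GUT2, IRX15 and IRX15-L passed (10.4% of all probe sets were called higher), and the difference of GUT1, 0.86, was under 1. At 12 h GUT2 and IRX15-L passed (8.94%), by 3.75 and 3.83, against a TBL34 difference of 6.45. Those 2 means join unlike DEX arrays: GUT2 read 9.05, 13.15 and 8.90, and IRX15-L 7.88, 13.01 and 7.62. At 6 h GUT2, IRX15-L and GUT1 passed (9.85%), and at 30 h GUT2, IRX15 and IRX15-L (12.7%). At 1, 24 and 48 h 0 of the 4 passed. Of all probe sets, 0.0132% were called at 1 h, 2.89% called higher at 24 h and 0.0044% called at 48 h. Without the arrays that sit with the other label IRX15 also passed at 6 and 12 h, and GUT2, IRX15 and IRX15-L passed at 24 h. At 6, 12 and 24 h 12.3%, 10.3% and 13.3% of all probe sets were then called higher. The 1 h group would hold 1 DEX array, so its calls are not given. Of 5 listed genes for acetyl supply to wall polysaccharides, AT3G03210 was measured. It was called higher at 3, 6, 9, 12 and 30 h, by 3.04, 2.65, 3.60, 2.18 and 1.88, and at 24 h its difference was 1.26 (adjusted p = 0.107), or 2.42 without the arrays that sit with the other label (adjusted p = 4.4e-05). In the empty-vector line the mean difference of these 5 genes ran from -0.07 to 0.07, and each had an adjusted p of 1. None of the 10 listed cellulose and regulator genes was measured under its gene name, VND7 among them.

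TBL34 was high in some arrays in which IRX15 was low and GUT2 at a middle level. It stood at 10 or more in 24 of the 69 arrays. IRX15 was at 8.71 to 11.26 in 18 of these and under 4 in the other 6. In those 6 arrays TBL34 read 11.81 to 13.11 while GUT2 read 8.54 to 9.05, below its 10.43 to 13.37 in the other 18 and above its highest value of 7.20 in the 45 arrays with TBL34 under 10. In those 45 arrays IRX15 was at most 2.30. In the 6 arrays IRX15 read 2.17 to 3.07, more than 0.3 above the floor in 4 of them and within 0.3 of it in 2. The limits of 10 and 4 were set after the values were seen.

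Those 6 arrays are replicate 2 of the DEX groups at 1, 3 and 24 h, replicates 1 and 3 of DEX at 12 h, and replicate 3 of DMSO at 0 h. Over all probe sets the nearest VND7-line array of each was another of the 6, so their likeness was not confined to these genes. DMSO replicate 3 of 0 h and replicate 2 of DEX at 1 and 24 h are also among the arrays that sit with the other label. At 3 h IRX15 read 11.05, 2.83 and 10.95 with DEX, where TBL34 read 13.26, 13.11 and 13.01. At 12 h IRX15 read 3.07, 11.26 and 2.78 with DEX, where TBL34 read 12.97, 13.19 and 13.00. TBL34 thus varied far less than IRX15 among replicates at these times. The harvest labels of these arrays were not checked against any other record.

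**Figure D5:**
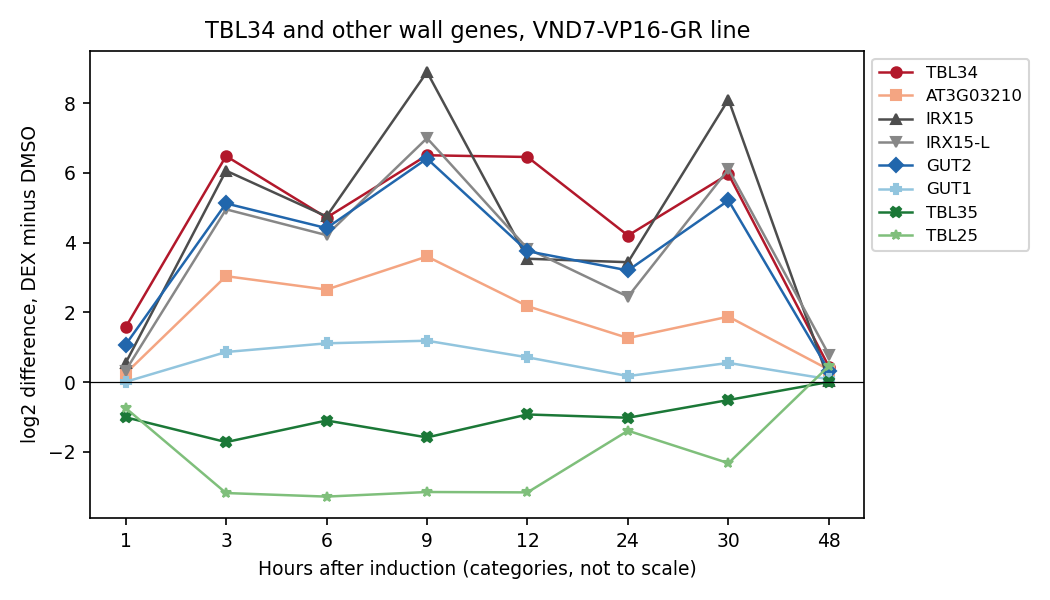
Mean log2 DEX minus DMSO difference in the VND7-VP16-GR line (all arrays, 3 per group) from 1 to 48 h for TBL34, AT3G03210, 4 xylan synthesis genes, TBL35 and TBL25. TBL34 is at 6.45 at 12 h, GUT2 at 3.75 and IRX15 at 3.54. The 12 h means of the last 2 join unlike DEX arrays, with GUT2 at 9.05, 13.15 and 8.90 and IRX15 at 3.07, 11.26 and 2.78. TBL35 and TBL25 run below 0 from 1 to 30 h.

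The probe sets of 1 gene most like TBL34, by Pearson correlation over the 69 arrays and out of 13512, were AT3G27200 (0.993), AT5G38610 (0.992), AT1G63520 (0.990), AT5G26330 (0.990), PRA1.B4 (0.989), AT3G47400 (0.988), AT5G18460 (0.988) and AT3G62160 (0.988). PRA1.B4 encodes a prenylated RAB acceptor. The least like were PRA1.F1 (-0.977), which the reference table also names as such a protein, AT3G13510 (-0.976), AT5G02890 (-0.976) and AT3G53250 (-0.975). These values mostly describe the split between arrays with high and low TBL34. Without the arrays that sit with the other label the 8 highest ran from 0.988 to 0.995 and the 4 lowest from -0.978 to -0.987. By rank correlation only 1 of the 8 stayed among the top 8, and over the 23 group means 6 did.

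The 9 h DEX differences of these 8 genes in the VND7 line were 3.00 to 8.27, and in the empty-vector line the mean DEX difference was -0.06 to 0.18. Without DEX at 9 h all 8 were higher in the VND7 line than in the empty-vector line, by 0.61 to 1.93, and none was called (limma adjusted p of 0.758 or more). These differences entered the correlation that chose the 8 genes.

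PRA1.B4 is also a neighbour of TBL34, 4 genes away in the order of protein-coding genes of the TAIR10.1 assembly. Of the 20 nearest such genes, 10 on each side, 9 were measured. At 9 h PRA1.B4 was called higher with DEX, by 3.00, and FAC1, an AMP deaminase, lower, with a difference of -1.64, while the other 7 were not called. At that time 11.8% of all probe sets were called higher and 17.7% lower.

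Markers of xylem vessels and of other cell types also differed between DEX and DMSO in the VND7 line. Of 5 listed xylem vessel markers 2 were measured, AT4G04460 and AT4G18425, and both were called higher with DEX at 3, 9, 12 and 30 h, where 10.4%, 11.8%, 8.94% and 12.7% of all probe sets were. At 6 h 1 of the 2 was called and at 1, 24 and 48 h neither. Their mean level ran from 5.74 to 13.55 in DEX arrays of the VND7 line, 5.02 to 13.19 in its DMSO arrays and 6.67 to 8.34 in the empty-vector line. The 3 chloroplast markers PORB, LHCB4.1 and PRK were all called lower at 3, 9 and 30 h, where 17.4%, 17.7% and 15.2% of all probe sets were, and 0 of the 3 at 1, 6, 12, 24 and 48 h. Without the arrays that sit with the other label all 3 were called lower and both vessel markers higher at 3, 6, 9, 12, 24 and 30 h. At these times 15.9% to 19.1% of all probe sets were then called lower and 10.3% to 14.1% higher. The 1 h group would hold 1 DEX array, so its calls are not given. The chloroplast mean level was 4.68 to 11.70 in DEX arrays, 4.55 to 11.97 in DMSO arrays and 10.96 to 11.98 in the empty-vector line.

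Of 4 root hair markers EXPA7 and EXPA18 were measured, with a mean level of 3.50 to 6.01 in DEX arrays of the VND7 line, 3.29 to 7.15 in its DMSO arrays and 3.28 to 3.94 in the empty-vector line. Both were called higher at 30 h (12.7% of all probe sets) and neither at the other times. Without the arrays that sit with the other label 1 of them was also called higher at 6 and 24 h, where 12.3% and 13.3% of all probe sets were. The phloem marker OPS, 1 of 5 listed, was called lower at 3 and 6 h (17.4% and 12.7% of all probe sets), or at 3 h alone without those arrays (19.1%). It stood at 2.43 to 3.95 in DEX arrays, 2.50 to 4.37 in DMSO arrays and 3.07 to 4.81 in the empty-vector line. None of 3 epidermis markers was measured. The part of changed cell types in the TBL34 values was not tested.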

How the data were processed

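The deposited values are log2 signals per probe set of 69 ATH1 arrays, made by the authors with GCRMA per the submitters' processing notes, with its version not given in the sources used here. No scaling was added. GCRMA sets dim probe sets to a common floor, so changes of dim genes are understated. Of 22810 probe sets 64 controls were left out and 22746 tested; 13513 named 1 gene, 503 several and 8730 none, and 13436 matched the reference table. Array medians ran from 4.89 to 5.60. The number of arrays limits the precision.

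One mean per group was fitted over all 69 arrays with limma 3.58.1 in R 4.3.3, letting the prior variance vary with mean signal. Calls needed an adjusted p (Benjamini-Hochberg within a comparison, two-sided) under 0.05 and a difference of at least 1. The method was tested on simulated data with independent normal noise, which held no arrays that sit with the other label. That test therefore cannot show how the calls behave with such arrays. TBL34, the family, the lists and the rule for named genes were chosen with earlier results of these data known. The rule names TBL34, relatives with a known substrate or called at 2 or more times, the 8 genes most like and 4 least like TBL34, and the measured members of the acetyl supply, xylan and cellulose lists; TBL38 was added after its values were seen. An array was taken to sit with the other label when its mean correlation over all probe sets was higher with arrays of that label, or when its nearest array carried it. Leaving such arrays out raises DEX differences by construction, and this was chosen after the data were seen. Alternatives were other scalings, a constant prior, a filter on dim probe sets, fits of the compared groups only, a replicate block and leaving out each array. Results rest on the submitters' labels.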

Additional observations from a re-analysis of the deposited data

Results flagged for a closer look

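The DEX minus DMSO difference of some TBL genes stood apart between the VND7 line and the empty-vector line. The VND7-line term of each value is the contrast that chose TBL34 and described its relatives, so large values were built into the choice, and the values are given as a description with no test. At 9 h the DEX difference in the VND7 line minus that in the empty-vector line was 6.69 for TBL34, -2.83 for TBL25, -1.46 for TBL35, -3.60 for TBL36, -2.57 for TBL37, -1.46 for TBL39 and -2.91 for TBL41. At 12 h it was 6.46 for TBL34, 1.34 for TBL16, 1.21 for TBL18, -3.05 for TBL25, -1.49 for TBL39 and -3.17 for TBL41. At 24 h TBL34 had 4.37 with all arrays and 6.34 without those that sit with the other label.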

How the results depend on the processing

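TBL34 kept its sign in the VND7 line at 1 to 48 h under the alternatives run. Leaving out the arrays that sit with the other label gives no 48 h value, since all 3 DEX arrays are among them. Without the arrays that sit with the other label its DEX difference was 5.84 at 1 h, from 1 DEX array whose nearest array was DEX 30 h replicate 2. The differences between the lines without DEX then passed, at 1.11, 1.00, 1.15 and 1.09 for 9, 12 and 24 h and their mean. With the compared groups only, the 9 h value of 1.11 passed. Centring each array on its median shifts all probe sets by 0.58 at 3 h and 0.55 at 9 h and gave TBL34 differences of 7.06, 7.05, 6.94 and 6.39 at 3, 9, 12 and 30 h, since medians were lower in DEX arrays; quantile scaling gave 6.60 at 3 h. Of the 21 other TBL genes, 1 was called at 1 h with a constant prior and 7 without the arrays that sit with the other label, where 30.6% of all probe sets were called and the DEX group is 1 array, assumed to vary like the other groups. At 6 h 3 were called with the compared groups only. At 24 h 0 were called after centring, after quantile scaling and with the compared groups only. Without the arrays that sit with the other label 6 were called at 24 h, where 30.4% of all probe sets were. In the empty-vector line at 24 h 1 (TBL41) was then called, where 0.229% of all probe sets were. Leaving out 1 array at a time gave 0 to 1 called at 1 h and 0 to 5 at 24 h, where DEX replicate 2 left out gave 5, DMSO replicate 1 left out 3 and DEX replicate 1 left out 0. For the constant prior, both scalings, the compared groups only and the left-out single arrays, the share of all probe sets called is not given here. Those counts therefore cannot be set against overall calling. The causes of these shifts were not tested. Leaving out 1 array moved the TBL34 difference to between 0.34 and 3.66 at 1 h, 3.78 and 6.48 at 6 h, 3.26 and 5.80 at 24 h, and, between the lines without DEX, 1.15 and 3.69 at 24 h.

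Replicate numbers did not pair the samples: in 8 of 33 pairs the deviations of same-numbered arrays correlated above 0.1, and in 0 of 11 comparisons did all. With the replicate number as a block the mean line difference without DEX had an adjusted p of 0.138, and no TBL34 call changed. A choice between probe sets was not run, as each TBL gene has 1, nor was the cellulose list, with 0 members measured.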
